A study of Mus musculus with 2 samples.

Results

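Expression of 10 genes of insulin and insulin-like growth factor (IGF) signaling was compared between control and senescent AML12 cells by RNAseq. The genes were picked by name for their place in the pathway, from cell surface to nucleus, with earlier results of these data known. All 10 of them were among the 35275 genes of the deposited table. They are the receptors Insr, Igf1r and Igf2r, the receptor substrates Irs1 and Irs2, the adaptor Grb10, the PI3K subunit Pik3r1, the kinase Akt2 and the transcription factors Foxo1 and Foxo3. AML12 is a hepatocyte line established from the liver of a mouse that carried a human TGFα transgene under a metallothionein promoter, and the labels give strain CD-1, male sex and an age of 3 months for both groups. Both groups were kept in DMEM:F12 with 10% FBS, an insulin, transferrin and selenium supplement and 100 nM dexamethasone. This complete medium held insulin for both groups. Senescent cells had received H2O2 for 1 h a day in serum-free medium over 6 days, each time with 23 h of recovery. The dose was 1 mM at first and 750 μM on the following 5 days, and the day of RNA extraction is not given in the sources used here. Control cells were untreated, and it is not stated whether they also spent 1 h a day in serum-free medium. If they did not, peroxide and the hours in serum-free medium cannot be told apart here. The labels call senescent cells Old and control cells Young. RNA of 3 samples per group was pooled into 1 library, so there was no replicate check, no p-value was computed, and each difference below is one between 2 libraries.

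Insulin and the IGFs bind receptor tyrosine kinases, which phosphorylate IRS proteins. These recruit PI3K, PI3K activates AKT, and AKT phosphorylates FOXO factors and thereby keeps them out of the nucleus. In hepatocytes, nuclear FOXO1 raises genes of glucose production as well as Irs2 itself, so that insulin lowers Irs2 mRNA and fasting raises it. IRS1 and IRS2 are the main substrates of the liver, and IGF1 receptor is normally low in adult hepatocytes.

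The control library held 28021941 counted reads and the senescent library 25738075. Libraries were brought to one scale with TMM factors from edgeR, and the log2 ratio of senescent over control was taken with a prior count of 1. Its 95% interval comes from the binomial share of a gene's reads in the senescent library (Clopper-Pearson). It covers counting error only, with reads taken as independent, and no difference between samples. Reads amplified by PCR and not tagged per molecule may be copies of one another, which would make the interval too narrow. Calls of higher or lower needed 10 or more reads in the sum of the libraries, an interval without 0 and a log2 ratio past 1.5 in either direction. That is a fold of 2.83 and the log2 cutoff of the study. The study applied it to genes that also passed a significance threshold, so its calls and those here follow different rules. Levels of different genes are compared only as TMM-scaled RPKM. These are reads divided by the scaled library size and by the merged length of all annotated exons in kb. CPM is the same without the length. The isoforms expressed were not determined, so the order of 2 genes by RPKM can depend on these lengths. Of 10 hepatocyte markers 9 were matched and all 9 had reads in both libraries, with a summed TMM-scaled CPM of 8517 in control and 10170 in senescent cells, although Alb (32076 and 2917 reads) and Apoa1 were called lower. The keratins Krt8 and Krt18 made up 5499 and 8295 of these sums, and the other 7 markers, summed after the values were seen, came to 3018 in control and 1875 in senescent cells. Cholangiocyte markers summed to 1897 and 1421, with log2 ratios of -1.43 for Krt7, -1.04 for Spp1, -0.03 for Krt19 and 0.54 for Sox9, and none was called. Macrophage markers summed to 194 and 82.1, almost all of it Cd14 (5551 and 1879 reads, log2 ratio -1.33), while Ptprc (27 and 76 reads) and Csf1r (15 and 40) were called higher, Cd68 had 34 and 40 reads, Lyz2 had 1 and 0, and Adgre1 was at 0 in both libraries. The fibroblast and stellate cell, endothelial and adipocyte markers each summed to less than 1, with Acta2, Col1a2, Col3a1, Lep and Plin1 at 0 in both. Of 8 senescence markers, only Hmga1 was called, higher at 1.61 (12.5%, beside 2.71% of all tested genes). Log2 ratios were 0.90 for Cdkn1a, 0.46 for Cdkn2b, 0.26 for Trp53, 0.14 for Glb1, -0.30 for Lmnb1, -0.79 for Mki67 and -1.32 for Cdkn2a. Fewer cells that express a gene and less of its RNA per cell cannot be told apart in such bulk libraries.

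Of the 10 genes, 1 was called higher in the senescent library, Irs2, and none was called lower. Among all 14383 genes tested, 2.71% were called higher and 5.6% lower. At a cutoff of 1 on the log2 scale Irs2 was still the only gene of the 10 called, against 5.09% of tested genes higher and 9.98% lower. At a cutoff of 2 none of the 10 was called, against 1.52% higher and 3.2% lower. The median log2 ratio of the 10 genes was 0.041, with 5 genes above and 5 below 0, and that of all tested genes was -0.015. The median of the 10 genes took the opposite sign with total-count scaling, at -0.065, and after centring on genes of like length, at -0.059. The sign of each of the 10 log2 ratios held under the other scalings, prior counts and centrings tried.

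**Figure D1:**
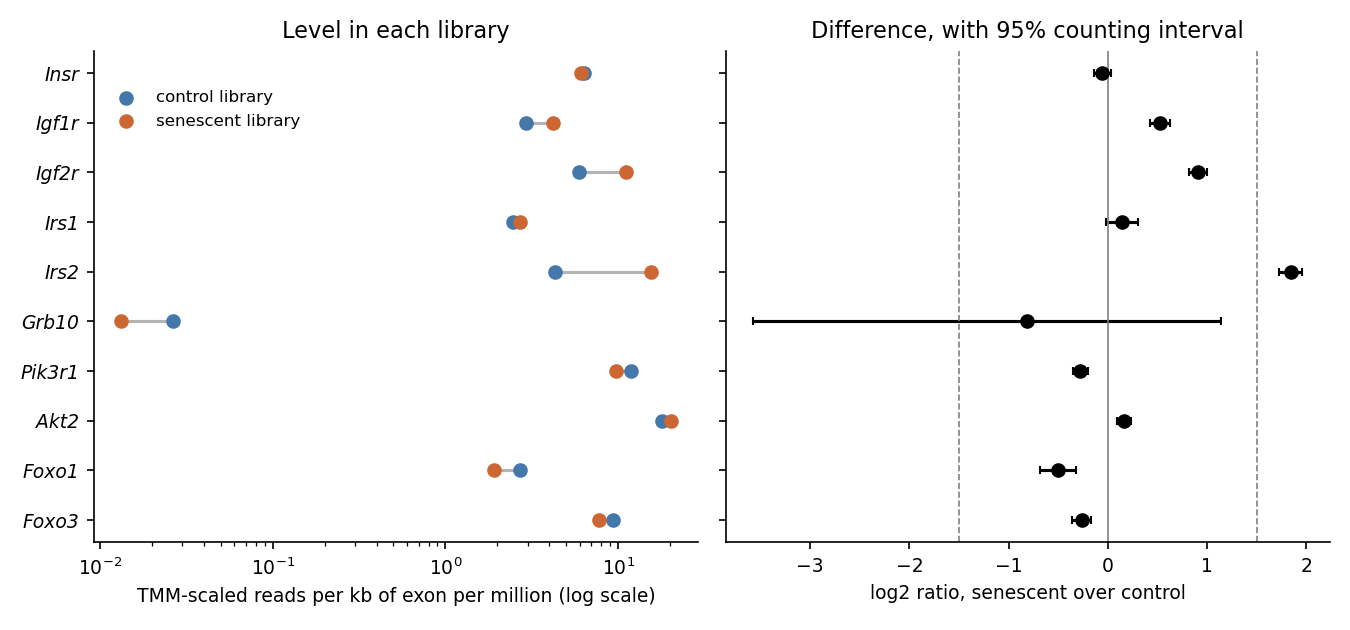
Levels and differences of the 10 genes. On the left each gene's level in the control (blue) and senescent (orange) library is drawn in TMM-scaled RPKM on a log axis, and on the right its log2 ratio with the 95% counting interval, with dashed lines at -1.5 and 1.5. Irs2, at 1.84, is the only gene past a dashed line, and the interval of Grb10, with 7 and 3 reads, spans both signs.

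The DNA just before the RefSeq starts of Irs2, its paralog Irs1 and Igf2r is shown because these are the gene that rose, the related gene that was not called, and the gene with the next highest log2 ratio of the 10. Each sequence is the 250 bases before the start on GRCm38, read 5′ to 3′ on the gene's own strand, which is the minus strand for all of them. Capitals mark matches, on either strand, to any of 6 motifs, which were the FOXO element TGTTTAC, the cAMP response element TGACGTCA, the E-box CACGTG, the CCAAT box CCAAT, the AP-1 site TGAGTCA and the GC box GGGCGG.
Irs2, chr8:11008930-11009179: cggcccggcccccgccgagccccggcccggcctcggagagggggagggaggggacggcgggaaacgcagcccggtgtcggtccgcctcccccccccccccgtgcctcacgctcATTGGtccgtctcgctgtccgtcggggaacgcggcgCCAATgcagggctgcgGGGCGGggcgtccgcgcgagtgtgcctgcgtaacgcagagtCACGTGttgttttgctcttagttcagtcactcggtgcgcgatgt
Irs1, chr1:82291440-82291689: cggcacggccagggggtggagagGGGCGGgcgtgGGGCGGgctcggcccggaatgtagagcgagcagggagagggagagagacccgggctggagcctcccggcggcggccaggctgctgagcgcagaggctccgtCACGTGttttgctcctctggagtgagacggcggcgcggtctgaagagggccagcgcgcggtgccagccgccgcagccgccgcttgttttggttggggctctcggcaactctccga
Igf2r, chr17:12769707-12769956: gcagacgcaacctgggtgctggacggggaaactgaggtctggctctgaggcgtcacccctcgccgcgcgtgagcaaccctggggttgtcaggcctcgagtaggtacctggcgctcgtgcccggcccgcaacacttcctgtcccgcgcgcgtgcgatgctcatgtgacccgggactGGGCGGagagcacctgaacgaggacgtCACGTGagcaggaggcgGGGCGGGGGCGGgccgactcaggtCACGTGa
Irs2 held 1 E-box from 44 to 39 bases before its start, 2 CCAAT boxes and 1 GC box. Irs1 held 1 E-box, from 115 to 110 bases before its start, and 2 GC boxes. Igf2r held 2 E-boxes and 3 GC boxes, of which the last 2 lie side by side, and matches of different motifs did not overlap in these windows. RefSeq sequence was found for 9 of the 10 genes, in 14 windows since some have several starts. Of all 32817 RefSeq windows of this length, 3.16% held the FOXO element, 1.55% the cAMP response element, 6.02% the E-box, 33.8% the CCAAT box, 4.46% the AP-1 site and 32.7% the GC box. The E-box occurred in these 3 of the 9 genes, against 9.67% of the 10394 tested genes that had a window. The CCAAT box occurred in Irs2, Foxo1 and Pik3r1, and in 40.6% of tested genes. The GC box occurred in all 9 genes and in 62.2% of tested genes. Neither the FOXO element, the cAMP response element nor the AP-1 site had a match in any of the 14 windows, and 2.87%, 3.06% and 4.21% of tested genes had one. Only the exact letters given above were searched. A site of the same factors with other letters would be left unmarked, so its absence from these windows is not shown. These matches are letters in a short window and say nothing of whether a factor binds there. The motifs were chosen after the expression values were known.

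The IRS genes parted. Irs2 (ENSMUSG00000038894, chromosome 8 from 10984681 to 11008458, GRCm38 with GENCODE M21) rose from 795 control to 2431 senescent reads. Its log2 ratio of 1.84 (95% interval 1.73 to 1.959) is a fold of 3.58, and 98.2% of all tested genes had a lower log2 ratio. Among the 7804 genes with at least 1000 reads over both libraries, 40 had a higher log2 ratio than Irs2. With a coefficient of variation of 0.4 assumed between samples, which these data cannot measure, the interval of Irs2 became 0.24 to 3.45. Whether such an interval holds 0 depends on the value assumed, so it is no check of Irs2 between samples.

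Irs1 (ENSMUSG00000055980, chromosome 1 from 82233101 to 82291416) had 652 control and 613 senescent reads (log2 ratio 0.14, -0.02 to 0.30). Per kb of exon, Irs2 stood at 4.32 RPKM and Irs1 at 2.45 in the control library, and at 15.5 and 2.70 in the senescent library. The share of Irs2 in the sum of the pair was 63.8% (Clopper-Pearson 61.4 to 66.2) in control and 85.2% (84.0 to 86.3) in senescent cells. The ratio of Irs2 to Irs1 reads does not depend on library scaling, and it was 3.25 times (95% interval of the exact conditional odds ratio 2.83 to 3.74) as high in the senescent library. Both together went from 6.78 to 18.2 RPKM, 2.69-fold. An overlapping gene on the opposite strand of Irs2, 9530052E02Rik, had 17 and 52 reads (1.78, 1.03 to 2.73), 2.14% of the Irs2 reads in either library, and it is not known whether counting used strand. The remaining IRS genes, Irs3 and Irs4, had 1 control read each and none in the senescent library.

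**Figure D2:**
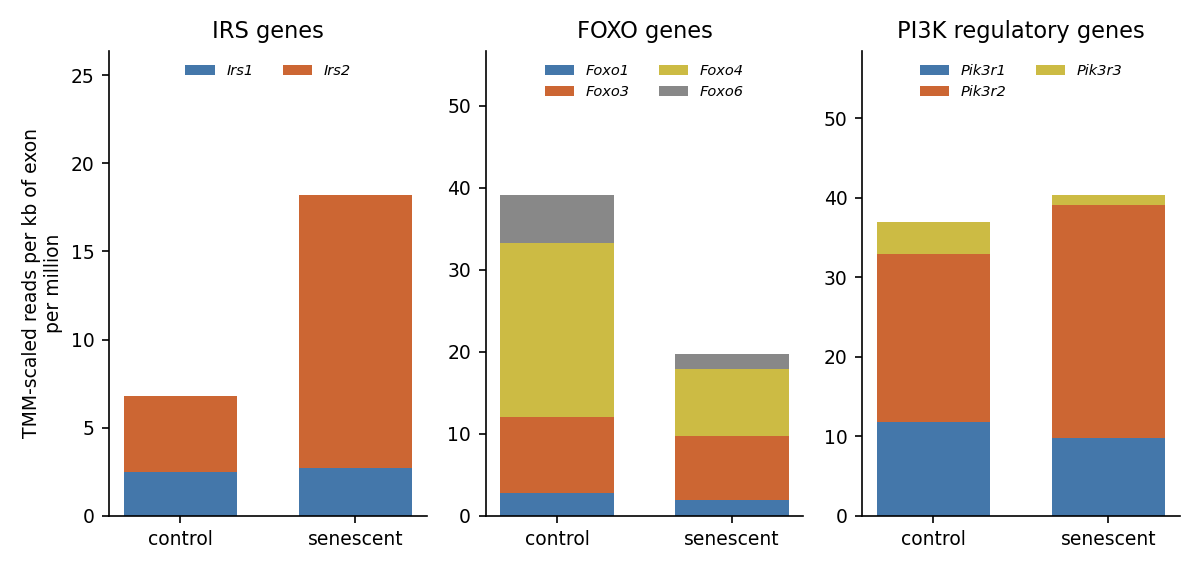
Sums of related genes, as stacked bars of TMM-scaled RPKM in the control and senescent library for the IRS, FOXO and PI3K regulatory genes, each panel on its own axis from 0. The IRS sum is 2.69-fold higher in the senescent library, with Irs2 at 85.2% of it, and the FOXO sum is 1.98-fold lower.

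The receptors ranged from no detectable difference to a log2 ratio of 0.91, below the cutoff. Insr, the insulin receptor (ENSMUSG00000005534, chromosome 8 from 3122061 to 3279617), had 2521 control and 2066 senescent reads. Its log2 ratio of -0.06 (-0.14 to 0.03) had an interval that holds 0. With total-count scaling it was -0.16, and after centring on length -0.18, both outside that interval, so it depends on the scaling. Igf1r, which encodes the IGF1 receptor tyrosine kinase (ENSMUSG00000005533, chromosome 7 from 67952827 to 68233668), had 1428 and 1752 reads (log2 ratio 0.52, 0.42 to 0.63). Insr had the higher level of the pair in both libraries, with 6.31 against 2.92 RPKM in control and 6.06 against 4.21 in senescent cells. The ratio of Insr to Igf1r reads in the senescent library was 0.668 times (0.609 to 0.732) that in the control, and the share of Igf1r in the sum of the pair was 31.7% (30.3 to 33.1) and 41.0% (39.4 to 42.5).

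Igf2r, the mannose 6-phosphate receptor that takes up IGF2 for degradation and sorts lysosomal enzymes (ENSMUSG00000023830, chromosome 17 from 12682406 to 12769664), had 1599 and 2557 reads. Its log2 ratio of 0.91 (0.82 to 1.00), a fold of 1.87, was higher than that of 96.1% of the genes with at least 1000 reads. The level went from 5.91 to 11.1 RPKM. The ratio of Igf2r to Igf1r reads was 1.30 times (1.19 to 1.43) as high in the senescent library. Igf2r is imprinted, and the noncoding Airn on its opposite strand had 166 control and 136 senescent reads (-0.06, -0.40 to 0.28), 10.4% and 5.32% of the Igf2r reads. Insrr, the insulin receptor-related receptor, had 1 read in each library.

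The ligands had few or no reads. Ins1 and Ins2 had 0 reads in both libraries, where 0 allows up to 3 reads, which is a TMM-scaled CPM of 0.103 for control and 0.121 for senescent cells. Igf1, which the liver secretes, had 83 and 68 reads (-0.06, -0.54 to 0.42). Igf2 had 3 and 9 reads, with a log2 ratio of 1.51 whose interval of -0.19 to 4.34 holds 0, so that it was not called.

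Among inhibitors of the receptors and their substrates, Grb10 had few reads. Grb10 encodes an adaptor that binds the active receptors and dampens their signal, and it is imprinted in the mouse (ENSMUSG00000020176, chromosome 11 from 11930508 to 12038683). It had 7 control and 3 senescent reads (log2 ratio -0.81, -3.58 to 1.14), and no difference was detectable at this depth. Its paralog Grb14 had 121 and 171 reads (0.72, 0.38 to 1.08). At 0.0265 and 0.0133 RPKM against 0.579 and 0.960, Grb10 lay far below Grb14 in both libraries, and the ratio of Grb10 to Grb14 reads was 0.304 times (0.0498 to 1.37) as high in the senescent library, an interval that holds 1. Grb7, of the same family, had 2703 and 1562 reads (-0.56, -0.65 to -0.47). At 27.6 RPKM in control and 18.7 in senescent cells, it lay far above Grb14 and Grb10 in both libraries.

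Of the 10 genes in the list of inhibitors, all 10 were tested, 1 was called higher, and the median log2 ratio was 0.22. That 1 gene is 10% of the list, beside 2.71% of all tested genes called higher. The called gene was Socs1, whose product blocks cytokine receptor signaling and targets IRS proteins for degradation. Socs1 rose from 34 to 188 reads (2.66, 2.16 to 3.27). The pseudokinase gene Trib3, whose product binds AKT, had 677 and 1299 reads (1.17, 1.03 to 1.31) and did not reach the cutoff. The tyrosine phosphatase gene Ptpn1, which acts on the insulin receptor, had 2954 and 2904 reads (0.20, 0.13 to 0.28), and Socs3 had 893 and 913 (0.26, 0.13 to 0.40). The substrates and adaptors held 9 tested genes with a median of 0.19, and Irs2 was the only one called, or 11.1% called higher. Shc1, the adaptor toward the RAS pathway, had the reads 6495 and 5160 (-0.10, -0.16 to -0.05), and Grb2 had 3057 and 3595 (0.46, 0.39 to 0.53).

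**Figure D3:**
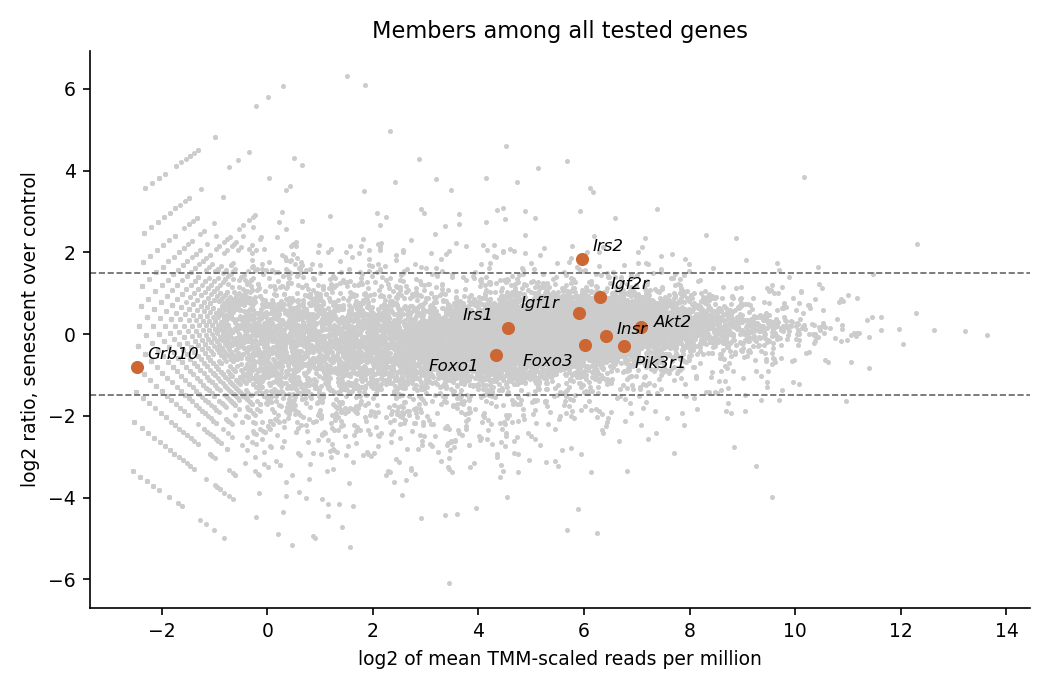
All tested genes (grey) and the 10 insulin and IGF pathway genes (orange), with the log2 of the mean TMM-scaled CPM on the horizontal axis and the log2 ratio of senescent over control on the vertical axis. Dashed lines mark -1.5 and 1.5. Irs2 lies above the upper line, and Grb10 at the far left among genes with about 10 reads. Igf2r has a higher log2 ratio than 96.1% of the genes with at least 1000 reads. All of the 10 genes but Irs2 lie between the dashed lines.

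Pik3r1 encodes the main regulatory subunit of class IA PI3K, which couples the enzyme to IRS proteins (ENSMUSG00000041417, chromosome 13 from 101680563 to 101768217). It had 3466 control and 2435 senescent reads (log2 ratio -0.28, -0.36 to -0.20). The second regulatory gene, Pik3r2, had 2569 and 3036 reads (0.47, 0.39 to 0.55). Pik3r2 had the higher level in both libraries, at 21.2 against 11.8 RPKM in control and 29.3 against 9.74 in senescent cells. In control Pik3r1 had more reads, and the order there rests on merged exon lengths of 10079 bases for Pik3r1 and 4176 for Pik3r2. The ratio of Pik3r1 to Pik3r2 reads in the senescent library was 0.595 times (0.552 to 0.640) that in the control. The catalytic gene Pik3ca had 1548 and 1780 reads (0.43, 0.33 to 0.53), and the ratio of Pik3r1 to Pik3ca reads was 0.611 times (0.560 to 0.666) as high. The share of Pik3r1 in the sum of the 3 regulatory genes per kb was 31.97% (30.9 to 33.0) in control and 24.1% (23.2 to 25.1) in senescent cells, while that sum was 37.0 and 40.4 RPKM.

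In the class I PI3K list, 7 genes were tested, 2 were called lower, none was called higher and the median log2 ratio was -0.28. These 2 genes are 28.6% of the list, beside 5.6% of all tested genes called lower. Pik3r3, another regulatory gene, fell from 617 to 171 reads (-1.62, -1.87 to -1.38), and its share of the regulatory sum was 10.8% (10.0 to 11.7) in control and 3.22% (2.77 to 3.73) in senescent cells. Pik3cd, the catalytic subunit best known from leukocytes, fell from 64 to 15 reads (-1.80, -2.78 to -1.04), while the macrophage markers went in opposite directions, with Cd14 at -1.33 and Ptprc at 1.68, and the part of such cells in these values was not tested. The PI3K inhibitor gene Pik3ip1, also a FOXO target, had 653 and 232 reads (-1.26, -1.49 to -1.05). None of the 7 phosphatase genes of the pathway was called, and their median was 0.0029. Inpp4b, with 100 and 210 reads, had the largest ratio among them (1.29, 0.95 to 1.66).

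Akt2, the AKT gene most tied to insulin action in liver (ENSMUSG00000004056, chromosome 7 from 27591552 to 27640826), had 3730 control and 3561 senescent reads (log2 ratio 0.16, 0.10 to 0.23). With total-count scaling this log2 ratio was 0.06, and after centring on length 0.08, both below that interval. Akt1 had 6047 and 7137 reads (0.47, 0.42 to 0.52). Per kb, Akt1 had the higher level of the pair in both libraries, with 50.7 and 70.2 RPKM against 18.0 and 20.1 for Akt2. The ratio of Akt2 to Akt1 reads in the senescent library was 0.809 times (0.764 to 0.857) that in the control. None of the 8 genes of AKT and its upstream kinases was called in either direction, with log2 ratios from -0.40 to 0.47 and a median of 0.19. Among 12 AKT substrate genes none was called, and the median was 0.0011. Tbc1d1, a regulator of glucose transporter traffic, had 1323 and 2354 reads (1.06, 0.96 to 1.16), and Gsk3b had 2194 and 2179 (0.22, 0.13 to 0.31).

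**Figure D4:**
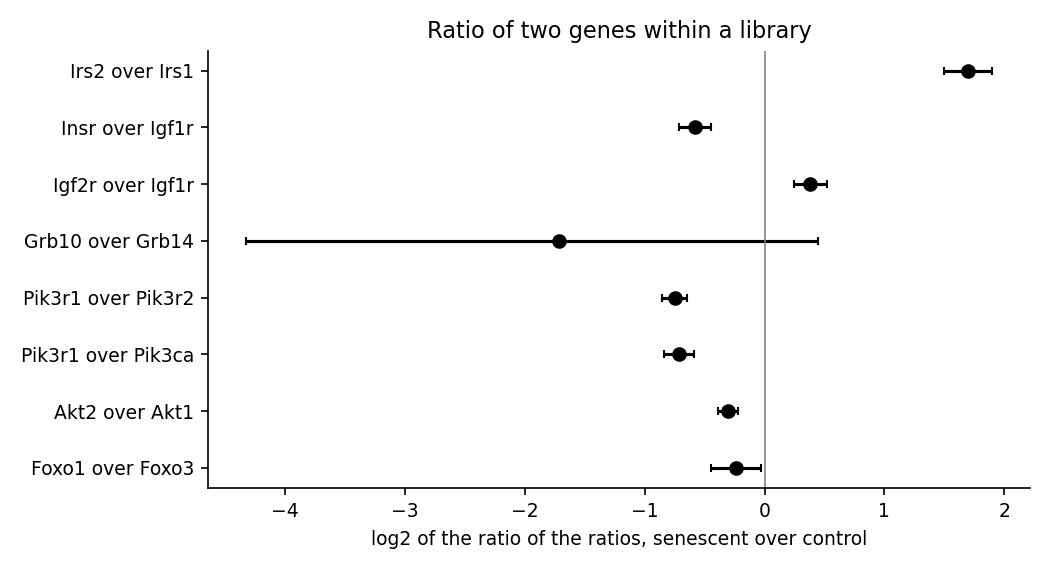
Ratio of 2 related genes in the senescent library over the same ratio in the control library, on a log2 axis, with the exact conditional 95% interval (counting error only) for the 8 pairs compared. Irs2 over Irs1 is at 1.70, the pairs Insr over Igf1r, Pik3r1 over Pik3r2 and Pik3r1 over Pik3ca lie between -0.75 and -0.58, and Grb10 over Grb14 is at -1.72 with an interval that holds 0.

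Both FOXO genes of the 10 had log2 ratios below 0 that did not reach the cutoff. Foxo1 (ENSMUSG00000044167, chromosome 3 from 52268336 to 52353221) had 683 control and 411 senescent reads (log2 ratio -0.50, -0.68 to -0.32). Foxo3 (ENSMUSG00000048756, chromosome 10 from 42181841 to 42276755) had 2052 and 1456 reads (log2 ratio -0.27, -0.36 to -0.17). Foxo3 stood above Foxo1 in both libraries, at 9.32 against 2.71 RPKM in control and 7.75 against 1.91 in senescent cells. The ratio of Foxo1 to Foxo3 reads was 0.848 times (0.736 to 0.977) as high in the senescent library. The overlapping antisense gene Gm20402 had 25 and 11 reads, 3.66% and 2.68% of those of Foxo1.

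The other FOXO genes had lower ratios. Foxo6 fell from 447 to 123 reads (-1.62, -1.93 to -1.34), and Foxo4, with 2149 and 708 reads (-1.37, -1.497 to -1.25), did not reach the cutoff. Foxo4 had the highest level of the 4 genes in the control library, at 21.2 RPKM, and 8.19 in the senescent library, where Foxo3 was at 7.75. The FOXO genes together went from 39.1 to 19.8 RPKM, 1.98-fold lower, and from 5331 to 2698 reads (-0.75, -0.82 to -0.69). The share of Foxo3 in this sum was 23.8% (22.8 to 24.9) in control and 39.3% (37.4 to 41.1) in senescent cells, and that of Foxo1 was 6.93% (6.42 to 7.47) and 9.68% (8.78 to 10.6). In the list of 12 FOXO factors and cofactors, Foxo6 was the only gene called, or 8.33% called lower beside 5.6% of all tested genes. The cofactor genes Ep300 and Sirt1 had log2 ratios of 0.27 (0.21 to 0.33) and 0.33 (0.12 to 0.54).

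FOXO factors have known targets in metabolism, cell cycle arrest and stress defense, and a list of these was taken from general knowledge. The list was chosen with earlier results of these data known, so its shares and median are descriptive and not an independent check. Of 24 targets 22 were tested, 4 were called lower, 1 was called higher, 15 had a log2 ratio below 0, and their median was -0.63 against -0.015 for all tested genes. Called lower were 18.2% of these targets, beside 5.6% of all tested genes, and the list overlaps the 10 genes by Irs2 and Insr, without which the median was -0.67. Irs2 was the called gene that rose. The 4 that fell were Pdk4, which restrains glucose oxidation (217 and 27 reads, log2 ratio -2.74), the mTOR inhibitor Ddit4 (11394 and 2096, -2.21), the transcription factor gene Klf15 (1504 and 418, -1.62, interval -1.78 to -1.46) and the sestrin gene Sesn3 (547 and 158, -1.56). The cell cycle inhibitor gene Cdkn1b had 4671 and 1607 reads (-1.31, -1.39 to -1.23), and Txnip, which limits glucose uptake, had 2180 and 763 (-1.28, -1.41 to -1.17). Cat, which encodes catalase, had 13268 and 7485 reads (-0.60, -0.64 to -0.56), and Klf6 had 6726 and 7682 (0.42, 0.37 to 0.47). Pdk4, Ddit4 and Klf15 are also induced by glucocorticoids, and dexamethasone was in the complete medium of both groups. The part of these other inputs in the values was not tested.

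The liver targets that define insulin's action on glucose production had few reads in either library. Pck1 had 1 and 4 reads, G6pc 8 and 4, and Igfbp1 0 and 1. No difference was detectable at these depths. Fbp1, with 1 and 2 reads, was likewise at the floor of 3 reads. Ppargc1a, the coactivator of gluconeogenic genes, fell from 105 to 16 reads (-2.42, -3.34 to -1.72) and was the only one of 7 tested genes called in the list of the CREB and PGC-1 arm, whose median was 0.11. It is 14.3% of that list, beside 5.6% of all tested genes called lower. Among 11 tested insulin-induced genes of hepatocytes, with a median of -0.26, Pnpla3 fell from 79 reads to 1 (interval -11.4 to -3.55), and Thrsp, with 1 and 10 reads (2.62, 0.74 to 8.99), was called higher on few reads. Pnpla3, called lower, and Thrsp are each 9.09% of that list, beside 5.6% of all tested genes called lower and 2.71% called higher. Srebf1, which insulin raises through its liver isoform, had 5135 and 3253 reads (-0.43, -0.49 to -0.37), Scd1 had 6110 and 2256 (-1.21, -1.28 to -1.14), and Fasn had 12274 and 12816 (0.29, 0.26 to 0.33).

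**Figure D5:**
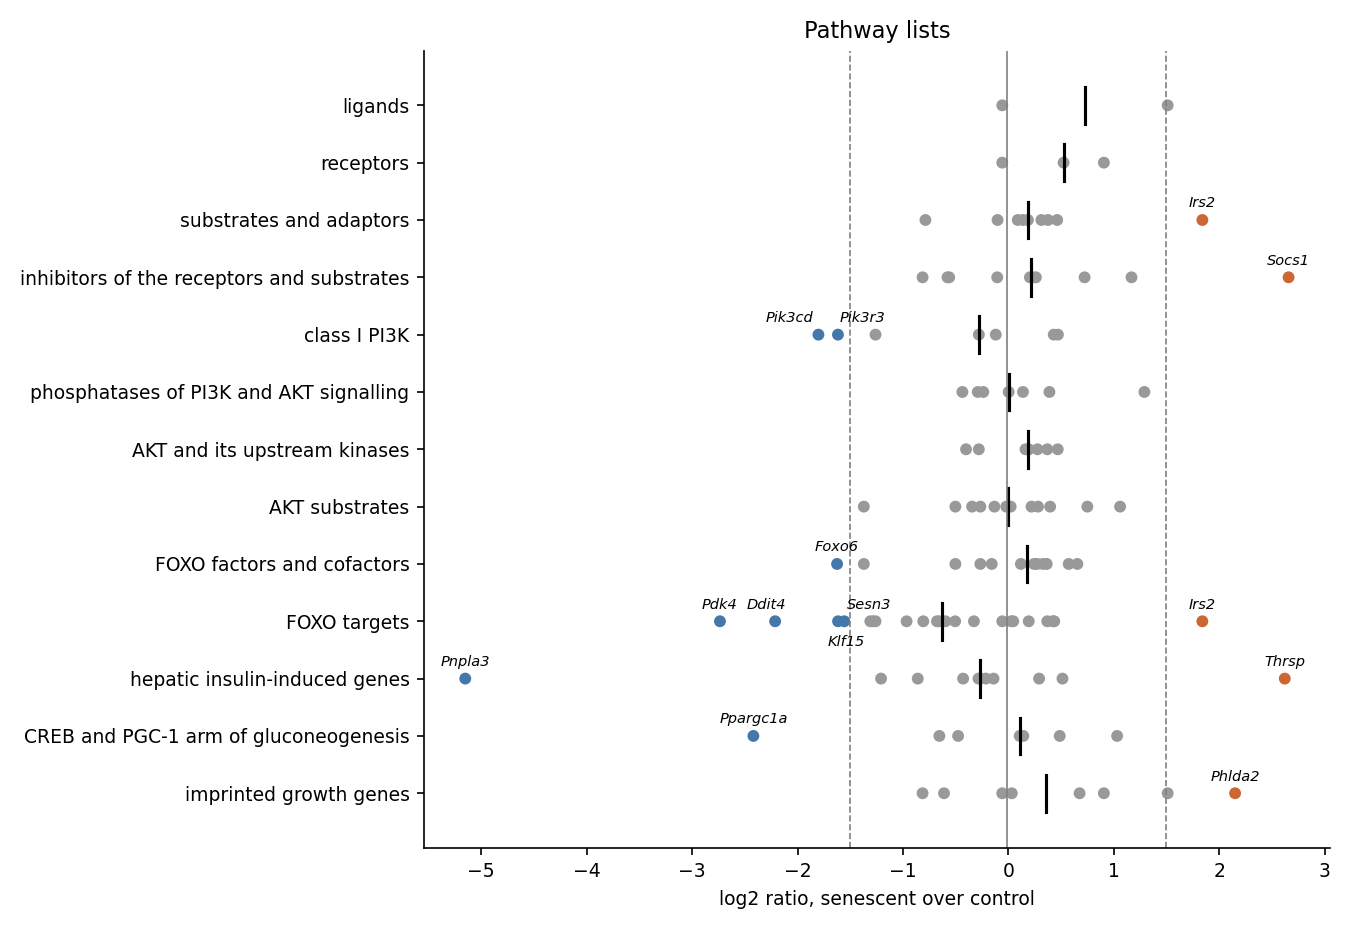
Log2 ratios of the tested genes in 13 lists of the insulin and IGF pathway, 1 point per gene, with black bars at list medians, a grey line at the median of all tested genes and dashed lines at -1.5 and 1.5. Called genes are colored (orange higher, blue lower) and named. The FOXO targets have the lowest median of the lists, -0.63, and Irs2 is the only one of them past the upper dashed line.

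Igf2r and Grb10 also belong to a list of 15 imprinted growth genes, of which 8 were tested. Phlda2, which restrains placental growth, rose from 15 to 60 reads (2.15, 1.40 to 3.15) and was the only gene called. It is 12.5% of the 8, beside 2.71% of all tested genes called higher. Peg3 had by far the most reads of the list, 24362 and 13613 (-0.61, -0.64 to -0.58). H19, Cdkn1c and Mest had at most 8 reads in either library, as Grb10 did, and Dlk1, Plagl1 and Ndn had 0 in both.

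Over all 13 lists, 107 of 123 genes were tested. Besides Irs2, 3 of the other 97 tested genes were called higher and 9 lower, or 3.09% and 9.28%, beside 2.71% and 5.6% of all tested genes. Since the lists were chosen with earlier results of these data known, these shares are descriptive. The 10 genes were long, with 6323 to 16791 exonic bases, and log2 ratios rose with length across all tested genes, from a median of -0.12 in the decile of the shortest genes to 0.12 in that of the longest. Relative to the median of their own length decile, Irs2 had 1.79, Igf2r 0.83, Igf1r 0.40, Akt2 0.08, Irs1 0.06, Insr -0.18, Foxo3 -0.35, Pik3r1 -0.40, Foxo1 -0.58 and Grb10 -0.89 on the log2 scale.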

How the data were processed

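RNA of 3 samples per condition was pooled by the authors and sequenced as 1 library each for control and senescent AML12 cells. The authors deposited raw read counts per gene by Ensembl identifier. Their processing notes name CASAVA, STAR, DESeq2, edgeR and mm10, and the counting tool, the annotation and the use of strand are not given in the sources used here. How reads of overlapping genes were divided is therefore uncertain. Columns were assigned by the initials of the sample titles. Symbols, positions and merged exon lengths came from GENCODE M21 on GRCm38, the same assembly as mm10, and 34490 of 35275 genes had a symbol. Sequences came from RefSeq on GRCm38.p6.

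Counts were scaled with TMM in edgeR 4.0.16 (R 4.3.3), with DESeq2 1.42.0 size factors, upper quartiles and total counts as alternatives. Ratios and intervals were computed in Python 3.11.15 (scipy 1.17.1, numpy 2.4.6, pandas 2.3.3), and plots with matplotlib 3.10.9. No test of edgeR or DESeq2 was possible with 1 library per condition. Odds ratios compare 2 genes between libraries. The 10 genes, the 13 lists and the 8 pairs were chosen with earlier results of these data known, and the sums of related genes and the motifs after the values were seen. Named are the 10 genes, their pair partners, called list genes and up to 4 others per list with the most reads, and further genes (Irs3, Irs4, Socs3, Inpp4b, Tbc1d1, Foxo4, Sirt1, Txnip, Scd1, Pck1, G6pc, Igfbp1, Fbp1, H19, Mest, Dlk1, Plagl1 and Ndn) were named after their values were seen. Marker Tf was not matched by symbol. Some genes of the lists are counted in them but not reported here.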

Additional observations from a re-analysis of the deposited data

How the results depend on the processing

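With 1 library per condition no value has a replicate error, and depth limits Grb10, the ligands and the gluconeogenic genes. No paired analysis was possible because each condition has 1 library and no replicate numbers. The log2 ratios of the 10 genes were recomputed under 7 alternatives each, 70 values in all, of which 60 stayed within the interval of the value reported and 10 moved outside it, and Irs2 ranged from 1.73 to 1.89. Insr, Igf1r, Pik3r1 and Akt2 moved outside with both total-count scaling and centring on length. Igf2r and Foxo3 did so with total-count scaling only. Total-count scaling shifted the scale of all log2 ratios by -0.11, less the effect of the prior count at few reads, and moved the median of the 10 genes to -0.0654, and centring on length moved that median to -0.0587. With at least 100 reads required, 1 other pathway gene was called higher, and 141 and 395 of all genes were called higher and lower. A prior count of 5 left 259 genes called higher. At a cutoff of 1, 7 other pathway genes were higher and 14 lower, 7 FOXO targets were lower, and 732 and 1435 of all genes were called. At a cutoff of 2, 0 of the 10 genes were called higher, 4 other pathway genes and 2 FOXO targets were called lower, and 219 and 460 of all genes were called. With a coefficient of variation of 0.4 assumed, 3 FOXO targets and 8 other pathway genes were called lower. Of all genes, 261 were then called higher and 595 lower. The counts at these cutoffs and with this coefficient are out of 22 tested FOXO targets, 97 other pathway genes and 14383 genes. Where more or fewer genes were called at another cutoff or read minimum, this follows from its construction. Leaving Irs2 and Insr out of the FOXO targets, an alternative added after seeing the data, kept 4 called lower. That number could not change, since neither gene was called lower.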
